A study of Drosophila melanogaster with 23 samples.

Results

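The genes described here are core autophagy genes of Drosophila melanogaster, chosen by symbol: Atg1, Atg5, Atg7, Atg8a, Atg8b, Atg9, Atg13, Atg17, Atg18a and ref(2)P. Of these 10 genes, 9 were found among the 11152 features of the table of expected counts. Atg8b, a paralog of Atg8a at chromosome 3R, 17724410 to 17725063 (dm6), had no entry there and was not analysed here. The paralogs could therefore not be compared. The table held no value of 0 for any feature, so the missing entry does not show whether Atg8b was expressed. All 9 genes found passed the filter on low counts, which kept 9698 features with 0.5 CPM or more in each of the libraries. CPM, the unit of all levels below, is a gene's count scaled to the size of its library.

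RNA was sequenced from whole bodies of virgin w1118 flies, a white-eyed laboratory strain. The study asked how adult temperature and sex shape the transcriptome of aging flies. Flies were frozen in groups of 10. Females were kept at 18, 24 or 28 °C with 4 libraries at each temperature, and males at 18 or 24 °C with 4 libraries each and at 28 °C with 3. Flies at 18 and 24 °C were 45 days old and flies at 28 °C were 35 days old, so in any comparison with 28 °C the temperature and the age cannot be told apart. All groups carried the same genotype, and no other agent was given according to the labels.

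Each library held 17727137 to 23194619 expected counts in total. The lowest female total, 21998441, was above the highest male total, 20119003, so depth and sex changed together. Germline markers were compared with the sex labels as sums and gene by gene. Summed over 10 genes of the ovary germline, females had 2490 to 4365 CPM and males 583 to 1488 CPM. In this list osk, a defining oocyte gene, had 1018 ± 75.2 CPM in females (SD, n = 4) and 0.440 ± 0.143 CPM in males at 18 °C (SD, n = 4), and 8 of the 10 genes had the higher mean in females there. The other two, exu and grk, had the higher mean in males, with 673 against 210.4 CPM for exu and 59.2 against 39.4 CPM for grk. Summed over the 5 genes of an 18-gene testis list that the table holds, males had 1662 to 3683 CPM and females at most 251 CPM. Of these 5 genes only twe had the higher mean in females at 18 °C, with 90.3 against 59.1 CPM. The testis genes Mst87F, dj and aly were not among them. In 3 groups 1 library stood apart from its replicates: female 28 °C replicate 1, male 18 °C replicate 3 and male 24 °C replicate 1. Their chi-square per degree of freedom against the other libraries of the group was 49.8 to 107, and it was 11.4 to 37.1 among those others. Distant pairs also occurred in groups without such a library. Female 24 °C replicates 3 and 4 had 54, and female 18 °C replicates 3 and 4 had 45.1. This check covered only the groups of 4 libraries. In the male 28 °C group, with 3 libraries, replicate 1 had 28.2 and 36.2 against replicates 2 and 3, which had 11.4 between them.

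Autophagy is the route by which a cell encloses part of its own cytoplasm in a double membrane and delivers it to the lysosome. A kinase complex starts the membrane, lipid and lipid-binding proteins extend it, and a ubiquitin-like conjugation system attaches Atg8 to it, where Atg8 binds receptors that carry cargo. In flies the process is induced by starvation and in the fat body at metamorphosis, and it acts in muscle, gut and germline. The level of an mRNA does not measure the flux through the pathway. In bulk RNA from whole flies, fewer cells of a type and less RNA per cell cannot be told apart.

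Per kilobase of merged exons, Atg8a had the highest mean level of the 9 genes in all 6 groups and ref(2)P the next. In females at 18 °C Atg8a had 211 CPM per kilobase and ref(2)P 194, with overlapping libraries, and the libraries also overlapped in females at 24 and 28 °C. In males Atg8a and ref(2)P did not overlap at any temperature, with 397 against 196 CPM per kilobase at 18 °C. Atg18a followed in 5 of the 6 groups, and Atg13 in females at 28 °C. Atg7 had the lowest mean level in all 6 groups, from 5.67 CPM per kilobase in males at 18 °C to 12.5 in females at 18 °C, and did not overlap its neighbour in the order in any of them. Between Atg18a and Atg7, most neighbours in the order overlapped. Libraries of a group varied by a median coefficient of variation of 8.13%, from 1.58% for Atg9 in females at 18 °C to 24.5% for Atg5 in males at 18 °C.

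**Figure D1:**
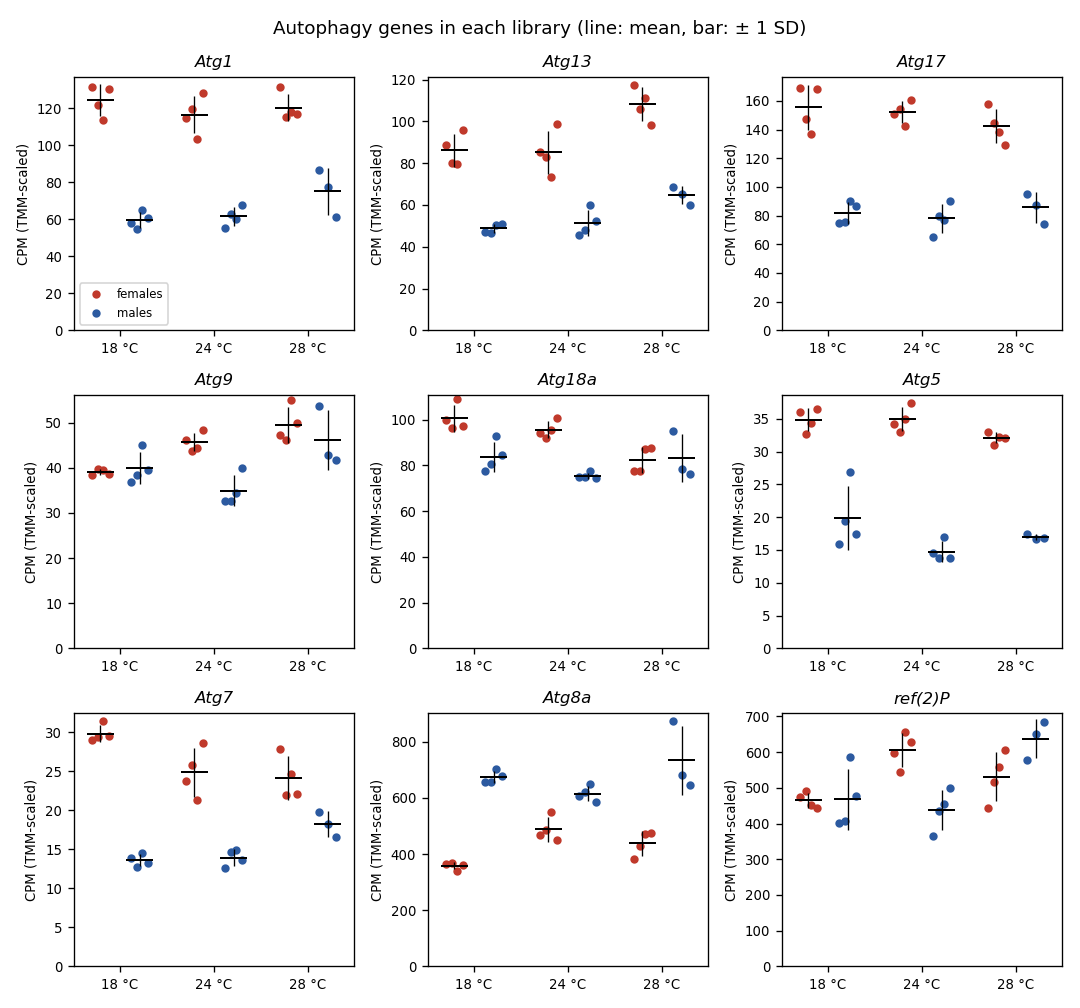
Level of each of the 9 genes in CPM (vertical axis, scaled with TMM factors) by temperature in °C (horizontal axis), with 1 point per library, females in red and males in blue. Short horizontal lines mark the group means and bars show 1 SD. Libraries of Atg1, Atg5, Atg7, Atg13 and Atg17 lie higher in every female than in every male, libraries of Atg8a lie higher in every male than in every female, and the sexes overlap for Atg9, Atg18a and ref(2)P.

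The first comparison asked how the sexes differ, averaged over the 3 temperatures. Males had lower levels of Atg1, Atg13 and Atg17 of the initiation complex, of Atg5 and of Atg7, at 0.504 to 0.589 times the female level, and higher levels of Atg8a, at 1.58 times the female level. In all, 8 of the 9 genes passed the threshold (edgeR's quasi-likelihood test, Benjamini-Hochberg adjusted p under 0.01), 1 higher and 7 lower in males. The background was high, since 86.7% of all tested features passed, 45.3% higher and 41.4% lower in males. The median log2 difference of the 9 genes was −0.76 and that of all tested features 0.07. For 6 of the 9 genes no female library overlapped a male library, which was true of 50.6% of all tested features.

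Atg1 (chromosome 3L, 12784429 to 12805116, minus strand) encodes the kinase that starts autophagosome formation. Its female libraries had 104, 119 and 132 CPM (lowest, median and highest, n = 12), and its male libraries 54.6, 61.5 and 86.6 CPM (n = 11). The log2 difference of males less females was −0.89 ± 0.06 (SE, adjusted p = 1.13e-12). Atg13 (3R, 8349815 to 8352817, plus strand) is the regulatory subunit that links the kinase to TOR signalling. It had 73.5, 92.3 and 118 CPM in females and 45.5, 50.7 and 68.7 CPM in males, a log2 difference of −0.76 ± 0.06 (adjusted p = 1.46e-11). Atg17 (3R, 5669713 to 5679930, plus strand) is the scaffold of the same complex. It had 129, 149 and 168.7 CPM in females and 65.2, 79.5 and 95.2 CPM in males, a log2 difference of −0.87 ± 0.06 (adjusted p = 5.18e-12). In all 3 genes the lowest female library lay above the highest male library. Atg101, a further subunit named here after its values were seen, went the other way, with a log2 difference of 0.23 ± 0.05 (adjusted p = 0.00017).

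In the conjugation system, Atg7 and Atg5 were lower in males and Atg8a was higher. Atg7 (2R, 18620466 to 18625044, minus strand) is the E1-like enzyme that activates Atg8 and Atg12. It had 21.3, 26.9 and 31.5 CPM in females and 12.5, 14.5 and 19.8 CPM in males, a log2 difference of −0.79 ± 0.06 (adjusted p = 1.33e-11). Atg5 (X, 7314622 to 7323770, minus strand) is the protein joined to Atg12 in the complex that places Atg8 on the membrane. It had 30.99, 33.7 and 37.4 CPM in females and 13.7, 16.8 and 26.9 CPM in males, a log2 difference of −0.99 ± 0.07 (adjusted p = 5.13e-12). The highest male value of Atg5 came from male 18 °C replicate 3. Atg8a (X, 10764878 to 10768338, minus strand) is the ubiquitin-like protein that is attached to the membrane. It had 340.3, 438 and 551 CPM in females and 587, 656 and 875 CPM in males, a log2 difference of 0.66 ± 0.05 (adjusted p = 4.73e-11). All 11 male libraries lay above all 12 female libraries. Other genes of the system, named here after their values were seen, went either way. Atg10, the E2-like enzyme that joins Atg12 to Atg5, had a log2 difference of 0.76 ± 0.07 (adjusted p = 2.51e-09), Atg16, which binds the Atg12 and Atg5 conjugate, 0.62 ± 0.07 (adjusted p = 2.57e-08), and Atg12 −0.012 ± 0.077 (adjusted p = 0.886).

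The other 3 genes differed little between the sexes. Atg18a (3L, 8186857 to 8191118, plus strand) binds the lipid phosphatidylinositol 3-phosphate on the growing membrane, and Atg9 (2R, 16294400 to 16297232, plus strand) is the transmembrane protein that supplies lipid to it. The log2 difference was −0.20 ± 0.04 for Atg18a (adjusted p = 0.000229) and −0.15 ± 0.05 for Atg9 (adjusted p = 0.0088), and in both genes libraries of the sexes overlapped. Atg9 passed in only 5 of the 23 fits that left out 1 library, with values down to −0.07 without male 28 °C replicate 3, and it did not pass with the replicate block (adjusted p = 0.0113) or without the 3 libraries that stood apart (adjusted p = 0.042). Atg18a no longer passed when male 18 °C replicate 1 (−0.13) or 2 (−0.13) or male 28 °C replicate 3 (−0.12) was left out. ref(2)P (2L, 19542468 to 19545548, plus strand) encodes the fly homologue of the cargo receptor p62. It had 443, 531 and 657 CPM in females and 366, 478 and 685 CPM in males, and its log2 difference of −0.06 ± 0.07 did not pass (adjusted p = 0.375).

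**Figure D2:**
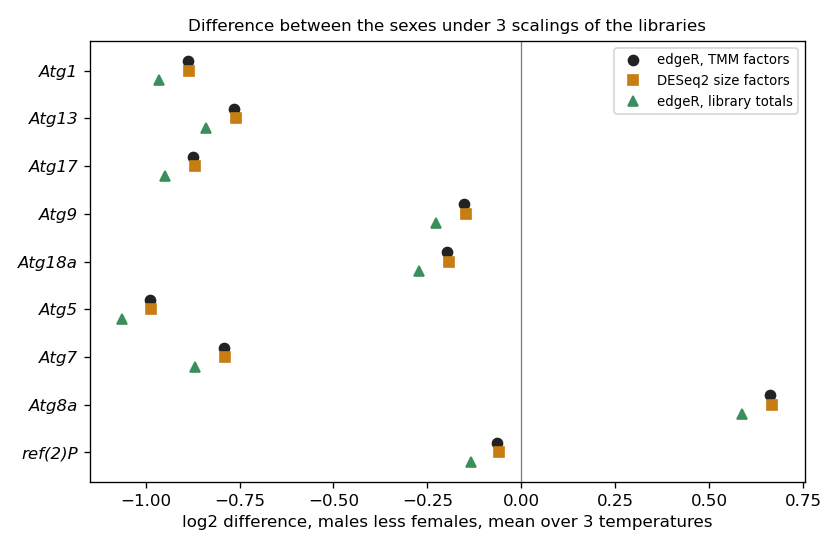
Log2 difference of males less females, averaged over temperatures, for the 9 genes under 3 ways of scaling the libraries (TMM, DESeq2 size factors and library totals). Every scaling gives the same direction for each gene, with Atg8a from 0.59 to 0.67, and the 5 genes lowest in males from −1.06 to −0.76.

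The expected counts of ref(2)P carry a limit that those of the other 8 genes lack. Its exons overlap those of CG10337 on the opposite strand over 173 bases, 7.22% of its merged exon length, and the counting was not stated to use strand. In all 23 libraries its expected count was not a whole number, so some reads were shared with another feature, while the counts of the other 8 genes were whole in every library. Expected counts that were not whole also occurred for Atg10, park, Gba1b, CtsL1, raptor and Lkb1, which are named elsewhere in this text.

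The germline list moved with the sex difference, as whole flies of the sexes hold different gonads, and its part in the difference of the autophagy genes was not tested. Among 29 other autophagy genes, 22 passed between the sexes, 12 higher and 10 lower in males, a smaller share than the 86.7% of all tested features, with a median log2 difference of −0.01. park, the fly parkin gene of mitophagy, had the largest log2 difference upward at 1.86 ± 0.09 (adjusted p = 2.17e-14). Vps39, a subunit of the tethering complex that brings vesicles to the lysosome, had the largest downward at −0.98 ± 0.05 (adjusted p = 4.16e-14).

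The next comparison asked how flies at 28 °C differed from flies at 18 °C, within each sex. In females Atg13, Atg9 and Atg8a rose and Atg18a and Atg7 fell, each by about 0.3 on the log2 scale. Thus 5 of 9 genes passed, while 41.4% of all tested features did, 18.9% upward and 22.5% downward. The same 5 genes were those whose libraries at 28 and 18 °C did not overlap, against 45.6% of all tested features. The median log2 change of the 9 genes was −0.05 and that of all tested features −0.09. The split of calls by direction depended on the scaling, with 3 higher and 2 lower under TMM, 1 and 2 with DESeq2, 0 and 2 with library totals, and 3 and 0 with no filter on low counts.

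Atg13 had 88.8, 80.1, 79.5 and 95.8 CPM in the 4 female libraries at 18 °C and 118, 106, 111 and 98.5 CPM in the 4 at 28 °C. Each library at 28 °C lay above each at 18 °C, and the log2 change was 0.33 ± 0.09 (SE, adjusted p = 0.00465). Leaving out replicate 2 (0.30) or 3 (0.29) at 18 °C, or replicate 1 (0.29) or 3 (0.32) at 28 °C, ended the call. Atg9 had 38.4, 39.8, 39.4 and 38.7 CPM at 18 °C and 47.2, 46.1, 54.9 and 49.9 CPM at 28 °C. The log2 change was 0.34 ± 0.09 (adjusted p = 0.00228), and only without female 28 °C replicate 3 was it not called (0.29, adjusted p = 0.0131). Atg8a had 364, 367, 340.3 and 363 CPM at 18 °C and 382, 427, 472 and 476 CPM at 28 °C. The log2 change was 0.29 ± 0.09 (adjusted p = 0.00737), and the call was lost without any 1 of the 18 °C libraries (0.27 to 0.30) or of 28 °C replicates 2, 3 and 4 (0.25 to 0.31).

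The genes that fell did so by as little. Atg18a had 100.04, 96.3, 109 and 97.1 CPM at 18 °C and 77.4, 77.5, 87.1 and 87.6 CPM at 28 °C, a log2 change of −0.29 ± 0.07 (adjusted p = 0.00231). It passed in 13 of the 23 fits that left out 1 library, with values from −0.32 to −0.22. Atg7 had 29.01, 29.3, 31.5 and 29.5 CPM at 18 °C and 27.9, 21.998, 24.7 and 22.1 CPM at 28 °C, a log2 change of −0.30 ± 0.09 (adjusted p = 0.0093). This call was the least stable of the 5, since it passed in 3 of those 23 fits, with values from −0.38 to −0.23. Leaving out male libraries, which are not part of this comparison, could also end the calls of both genes. Without male 18 °C replicate 1, Atg7 was at −0.23 and Atg18a at −0.22. Each of those fits scaled the libraries and estimated the spread anew, and the cause of the losses was not tested. Of the genes that did not pass in females, Atg1 had a log2 change of −0.05 (adjusted p = 0.678), Atg17 −0.12 (0.296), Atg5 −0.12 (0.37) and ref(2)P 0.19 (0.168). Without the 3 libraries that stood apart, 5 genes again passed, with Atg18a lost (−0.19) and ref(2)P gained (0.34).

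In males at 28 against 18 °C, Atg13, Atg7 and ref(2)P rose and none of the 9 genes fell. The 3 calls compare with 29.3% of all tested features, 15.4% upward and 13.9% downward. The median log2 change of the 9 genes was 0.20 and that of all tested features 0.01. Libraries did not overlap for 2 of the 9 genes, Atg13 and Atg7, against 45.7% of all tested features. Without the 3 libraries that stood apart 3 genes passed, and with males fitted alone 0 of the 9 passed at the threshold of 0.01.

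Atg13 had 47.0, 46.8, 50.4 and 50.7 CPM in the male libraries at 18 °C and 68.7, 65.4 and 60.2 CPM at 28 °C, a log2 change of 0.41 ± 0.10 (adjusted p = 0.00247). It was the only one of the 9 genes called in the same direction in both sexes, while the estimates of Atg8a, Atg9 and ref(2)P were also positive in both. The call was lost in 5 fits, those that left out replicate 1 (0.29), 2 (0.30) or 4 (0.34) of the males at 18 °C or replicate 1 (0.27) or 2 (0.40) of those at 28 °C. Atg7 had 13.9, 12.7, 14.5 and 13.2 CPM at 18 °C and 19.8, 18.3 and 16.5 CPM at 28 °C, a log2 change of 0.42 ± 0.10 (adjusted p = 0.00274). It lost the call in 9 of the 23 fits and was lowest without male 28 °C replicate 1 (0.26, adjusted p = 0.0791). ref(2)P had 401, 409, 586 and 478 CPM at 18 °C and 578, 651 and 685 CPM at 28 °C, a log2 change of 0.45 ± 0.12 (adjusted p = 0.00652). Its groups overlapped through male 18 °C replicate 3, the library that stood apart. Leaving out 1 library moved its change between 0.28 (male 18 °C replicate 1) and 0.57 (male 18 °C replicate 3), and the call was lost in 10 of 23 fits.

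Among the genes that did not pass in males, Atg1 lay closest to the threshold. It had 57.9, 54.6, 64.9 and 60.6 CPM at 18 °C and 86.6, 77.5 and 61.5 CPM at 28 °C, a log2 change of 0.34 ± 0.10 (adjusted p = 0.0102), and overlapped through the lowest library at 28 °C. Without male 28 °C replicate 1 its change was 0.12. Log2 changes of the others were −0.23 for Atg5, −0.01 for Atg18a, 0.06 for Atg17, 0.13 for Atg8a and 0.20 for Atg9, with adjusted p from 0.084 to 0.931. Without male 28 °C replicate 1 the values of Atg8a and Atg9 were −0.12 and −0.02, in a fit that scaled the libraries anew. In the scaling of the main fit, male 28 °C replicates 2 and 3 had 683 and 647 CPM for Atg8a, against 655.5 to 702 CPM at 18 °C. For Atg9 they had 42.9 and 41.7 CPM, against 36.9 to 45.1 CPM. The part of the scaling in the refitted values was not tested. The value of Atg5 was −0.05 without male 18 °C replicate 3 and passed without male 18 °C replicate 1 (−0.43, adjusted p = 0.00566).

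**Figure D3:**
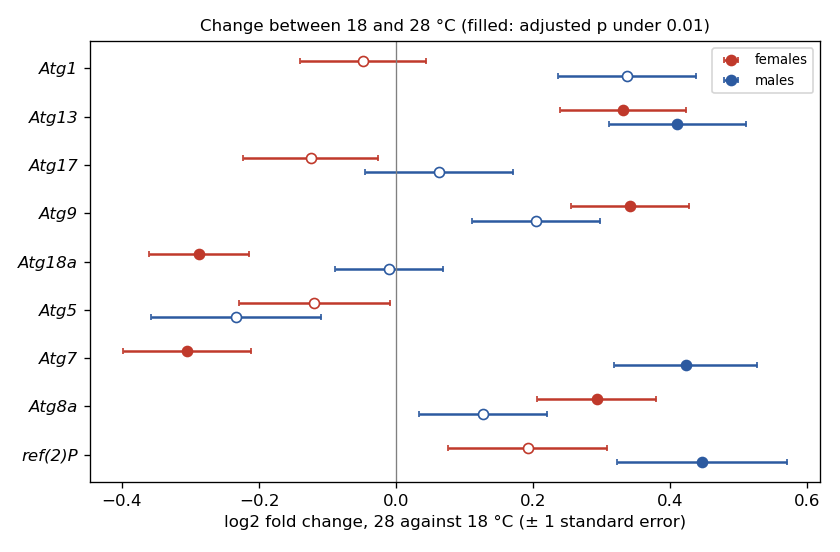
Log2 change at 28 against 18 °C (horizontal axis) for each of the 9 genes in females (red) and males (blue), with bars of 1 SE and filled points where the adjusted p was under 0.01. Atg13 is filled on the right in both sexes, and Atg7 is filled on the left in females (−0.30) and on the right in males (0.42).

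The sexes were then compared in their change between 18 and 28 °C. Atg7 was the only one of the 9 genes whose difference passed, against 20.3% of all tested features, 11.9% more positive and 8.38% more negative in males. The difference of the log2 changes, males less females, was 0.73 ± 0.14 (interaction term, adjusted p = 0.000516). Atg7 fell in females and rose in males, and in both sexes its libraries at 28 and 18 °C did not overlap. The difference passed with every other scaling, filter and block, at 0.58 to 0.77, and in 22 of the 23 fits that left out 1 library. Without male 28 °C replicate 1 it was 0.49 (adjusted p = 0.0153). The median difference of all tested features was 0.03, and −0.13 when the filter on low counts was set on the mean, where Atg7 had 0.58. For Atg1 the difference was 0.39 (adjusted p = 0.0338), and 0.098 without male 28 °C replicate 1, and for Atg18a 0.28 (adjusted p = 0.0509). For Atg8a it was −0.17 and passed only without male 28 °C replicate 1 (−0.48, adjusted p = 0.00652).

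At 24 °C, where age was the same as at 18 °C, Atg8a was the 1 gene of the 9 that passed in females, against 25.4% of all tested features, 14.5% higher and 11% lower. It had 467, 486, 551 and 449 CPM at 24 °C, all above the 340.3 to 367 CPM at 18 °C, and its log2 change of 0.45 ± 0.09 (adjusted p = 0.000631) passed in all 23 fits that left out 1 library. Libraries also did not overlap for ref(2)P, Atg9 and Atg7, so that 4 of 9 genes had separate groups against 42.1% of all tested features. ref(2)P had 474, 490.2, 453 and 443 CPM at 18 °C and 598, 546, 657 and 629 CPM at 24 °C, but its log2 change of 0.39 ± 0.11 missed the threshold (adjusted p = 0.0117). It passed in 7 of the 23 fits and without the 3 libraries that stood apart (0.42). Atg9 had a log2 change of 0.22 (adjusted p = 0.0397) and Atg7 of −0.26 (adjusted p = 0.0278).

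In males at 24 against 18 °C, 0 of the 9 genes passed, against 3.82% of all tested features, 2.13% higher and 1.68% lower. edgeR gave 2 genes at an unadjusted p under 0.05, and DESeq2 called 1, Atg5. Atg5 had 15.9, 19.4, 26.9 and 17.4 CPM at 18 °C and 14.6, 13.7, 17.0 and 13.7 CPM at 24 °C. The groups overlapped, as for all but 2 of the 9 genes, Atg8a and Atg18a, while 16.9% of all tested features had separate groups. The log2 difference of −0.44 ± 0.11 did not pass (adjusted p = 0.0188). Male 18 °C replicates decided this value, which was −0.25 without replicate 3 and −0.55 without replicate 1 (adjusted p = 0.0039).

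From 24 to 28 °C, Atg13 was the 1 of the 9 genes that passed in females, against 28.3% of all tested features, 9.7% higher and 18.6% lower. It had 85.4, 83.0, 73.5 and 98.5 CPM at 24 °C and rose by 0.35 ± 0.09 on the log2 scale (adjusted p = 0.00463, and 0.0319 with library totals), with groups that overlapped by 1 library. Groups did not overlap for Atg18a and Atg5, 2 of the 9 genes, against 37.1% of all tested features. Leaving out replicate 1 (0.35) or 2 (0.34) at 24 °C, or replicate 1 (0.31) or 3 (0.34) at 28 °C, ended the call. In males 2 genes passed, against 10.3% of all tested features, 6.09% higher and 4.21% lower. Libraries of 4 genes did not overlap, against 34.1% of all tested features. Atg9 had 32.6, 32.7, 34.5 and 39.97 CPM at 24 °C and 53.7, 42.9 and 41.7 CPM at 28 °C, a log2 change of 0.40 ± 0.09 (adjusted p = 0.00485), which was 0.19 without male 28 °C replicate 1. The cargo receptor gene ref(2)P had 366, 435, 454 and 499.6 CPM at 24 °C and 578 CPM or more at 28 °C, a log2 change of 0.54 ± 0.12 (adjusted p = 0.00423), which was 0.38 without male 24 °C replicate 1. Neither call was kept in every fit that left out 1 library, with 9 lost for Atg9 and 10 for ref(2)P. The 28 °C libraries were shared by both comparisons with 28 °C and the 24 °C libraries by both steps.

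Beside these genes, the 29 other autophagy genes changed in part. In females 8 passed at 28 against 18 °C, 5 higher and 3 lower, against 41.4% of all tested features. The split turned with the scaling, to 3 higher and 8 lower with DESeq2 and 3 higher and 7 lower with library totals, and was 8 higher and 1 lower without the libraries that stood apart. In males 7 passed, 6 higher and 1 lower, against 29.3% of all tested features, and without those libraries 4 were higher and 4 lower. Atg10 had the largest fall in both sexes. Its log2 change was −0.83 ± 0.13 for females (adjusted p = 1.77e-05) and −0.89 ± 0.14 for males (adjusted p = 3.42e-05), while the change of its partner Atg5 did not pass in either sex. Atg2, the lipid transfer protein that works with Atg18a and Atg9, had the largest rise, with log2 changes of 0.46 ± 0.11 for females (adjusted p = 0.00155) and 0.75 ± 0.12 for males (adjusted p = 4.92e-05). In the difference between the sexes 0 of the 29 passed in the main edgeR fit, with 7 at an unadjusted p under 0.05. DESeq2 called 3, and edgeR called 2 with library totals, 2 without the libraries that stood apart and 0 with no filter.

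In several groups most of the 9 genes were highest or lowest in the same library. Among females, 24 °C replicate 4 had the highest value of its group for 7 of the 9 genes. Male 18 °C replicate 3 had the highest value of its group for 8 of the 9 genes, and male 28 °C replicate 1 for 8. Male 18 °C replicate 1 and male 24 °C replicate 1 had the lowest value of their groups for 6 each, and male 28 °C replicate 3 for 7. The summed level of the 5 testis genes was lowest in male 18 °C replicate 3, at 1662 CPM against 2378 to 3070 CPM in its replicates. It was highest in male 24 °C replicate 1, at 3683 CPM against 2098 to 2548 CPM. At 28 °C the summed level was 2608, 2243 and 2651 CPM, so that replicates 1 and 3 were alike in it while their autophagy genes lay at opposite ends. The part of the testis RNA in these values was not tested.

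**Figure D4:**
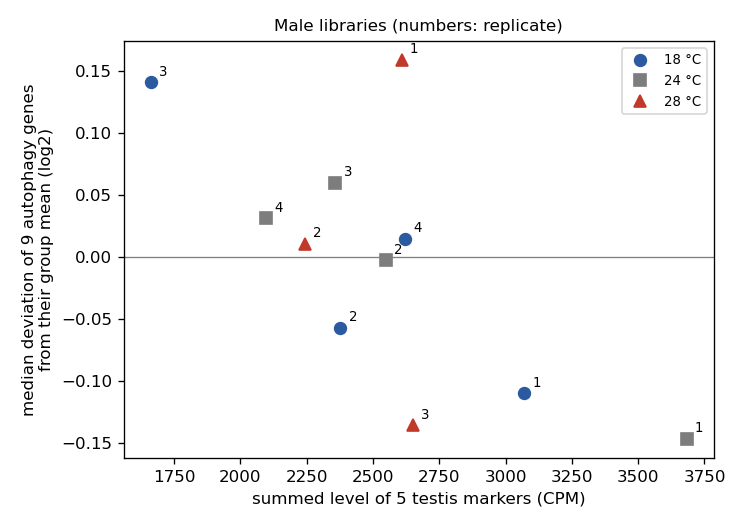
Median log2 deviation of the 9 genes from the mean of their group (vertical axis) against the summed CPM of 5 testis genes (horizontal axis) in the 11 male libraries, by temperature. The library with the lowest testis sum, at 18 °C, has a median deviation of 0.14, and the library with the highest, at 24 °C, has −0.15, while the 3 libraries at 28 °C spread from −0.14 to 0.16 at sums of 2243 to 2651 CPM.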

How the data were processed

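The authors enriched poly-A RNA, sequenced it on the BGISEQ-500 and filtered reads with SOAPnuke. The submitters' processing notes name HISAT, StringTie, Cufflinks, Bowtie2, RSEM and DESeq2 and the build dm6, and versions are not given in the sources used here. The deposited values are the expected counts of RSEM per gene, before any normalization; 23.23% of them are not whole. The table holds no value of 0. Gene symbols were replaced by gene ID for 11073 of 11152 features, of which 1838 changed, and ref(2)P was found by its ID. Positions came from the annotation BDGP6.54, which has dm6 coordinates.

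Computations used R 4.3.3 with edgeR 4.0.16 and DESeq2 1.42.0, and Python 3.11.15 with pandas 2.3.3 and matplotlib 3.10.9. Expected counts were rounded, 9698 features passed a minimum of 0.5 CPM in each library, and libraries were scaled with TMM factors. A model of 6 group means over all 23 libraries was tested with edgeR's quasi-likelihood test. Benjamini-Hochberg adjustment was made over all features, with a threshold of 0.01. The common biological coefficient of variation was 0.14. SE is the absolute log2 change divided by the square root of F. Scripts were tested on simulated data. Totals of 17727137 to 23194619 gave the 9 genes 206 to 16424 counts per library. Replicates are labelled as biological, and p-values measure the spread between these libraries.

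The genes and the lists were chosen with earlier results of these data known. All genes chosen by symbol are named, and of each other list the gene with the largest called rise and the largest called fall in a comparison. Alternatives were DESeq2, library totals, a filter on mean CPM, no filter, a replicate block, 1 sex alone, a threshold of 0.05 and leaving out each library. Leaving out the 3 libraries that stood apart was added after seeing the data, and that fit kept all 3 male libraries at 28 °C. Ratios of Atg8b to Atg8a were planned and not run.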

Additional observations from a re-analysis of the deposited data

Results flagged for a closer look

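Each of the 9 genes was tested in each of the 5 groups of 4 libraries, and 2 of these tests found a library far from its replicates by Dixon's test at the 95% level. Chance passes about 1 in 20 such tests, so a count of 2 is about what chance gives. Atg1 had 131 CPM in female 28 °C replicate 1 and 115.5 to 118 CPM in the other 3. This library stood apart across all features too, and without it the log2 change of Atg1 in females at 28 against 18 °C was −0.09. Atg8a had 340.3 CPM in female 18 °C replicate 3 and 363 to 367 CPM in the other 3, and without it the log2 change at 28 against 18 °C was 0.27 (edgeR, adjusted p = 0.0249).

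The change of Atg7 between 18 and 28 °C differed between the sexes by 0.73 on the log2 scale, males less females. All 4 female libraries at 28 °C lay below all 4 at 18 °C, and all 3 male libraries at 28 °C lay above all 4 at 18 °C.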

How the results depend on the processing

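The sex differences of Atg1, Atg5, Atg7, Atg8a, Atg13 and Atg17 kept their direction and passed under every alternative run. Calls between temperatures were less stable. At 28 against 18 °C in females, 5 genes passed, against 3 with DESeq2, 2 with library totals, and 3 each with a filter on mean CPM, no filter or the replicate block, and 1 to 5 when 1 library was left out. In males 3 passed, against 2 with library totals, 1 with a filter on mean CPM or none and 0 with 1 sex alone. When 1 library was left out, 0 to 4 passed. Of 7 alternative settings of this male comparison, Atg13 passed in 6, Atg7 in 4 and ref(2)P in 3. At 24 against 18 °C in females, 1 passed, against 2 with DESeq2, the replicate block, 1 sex alone or the libraries apart left out, 4 at a threshold of 0.05, and 1 to 2 when 1 library was left out. In males 0 passed, against 1 with DESeq2 or at 0.05, and 0 to 1 when 1 library was left out. At 28 against 24 °C in females, 1 passed, Atg13, against 2 with DESeq2 or at 0.05, and 0 to 1 when 1 library was left out, and with library totals Atg13 was lost (0.29) and Atg18a passed (−0.27). In males 2 passed, against 0 with library totals, a filter on mean CPM, no filter or 1 sex alone, 1 with the libraries apart left out, 5 at 0.05, and 0 to 3 when 1 library was left out. In the difference of the changes 1 passed, against 2 at 0.05. Between the sexes 8 passed, 7 with the replicate block or the libraries apart left out, and 6 to 8 when 1 library was left out. The TMM reference library changed with the filter and with the libraries fitted, and the cause of these shifts was not tested. Every fit that left out 1 library scaled the others anew, also when that library belonged to a group outside the comparison.

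Reversals concerned only log2 values that did not pass. With a filter on mean CPM and with no filter, Atg1 in females at 28 against 18 °C was 0.025 and 0.022, Atg17 in males −0.015 and −0.00796, Atg13 in females at 24 against 18 °C 0.0067 and 0.0033, Atg7 in females at 28 against 24 °C 0.00888 and 0.0097, and the difference of Atg13 between the sexes −0.073 and −0.063. With DESeq2 Atg5 in females at 24 against 18 °C was −0.049, with library totals Atg1 in females at 28 against 24 °C was −0.011, and with 1 sex alone Atg13 in females at 24 against 18 °C was 0.00055. With the libraries apart left out, females at 24 against 18 °C had 0.017 for Atg13 and 0.0048 for Atg17, males at 24 against 18 °C 0.041 for Atg17 and 0.096 for ref(2)P, males at 28 against 24 °C −0.025 for Atg17, and the difference of Atg13 was −0.034.

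Leaving out 1 library moved these values across 0. Atg1 ranged from −0.091 to 0.026 in females at 28 against 18 °C and from −0.0020 to 0.094 in males at 24 against 18 °C. Atg13 ranged from −0.14 to 0.12 in the difference, and at 24 against 18 °C from −0.093 to 0.070 in females and from −0.015 to 0.11 in males. Atg17 ranged from −0.069 to 0.24 in the difference, from −0.088 to 0.024 in females at 24 against 18 °C, and in males from −0.12 to 0.11 at 28 against 18 °C and from −0.034 to 0.21 at 28 against 24 °C. Atg18a ranged from −0.0040 to 0.33 in the difference, and in males from −0.22 to 0.041 at 28 against 18 °C and from −0.053 to 0.18 at 28 against 24 °C. Atg5 ranged from −0.38 to 0.067 in the difference and from −0.032 to 0.038 in females at 24 against 18 °C. Atg7 ranged from −0.12 to 0.032 in females at 28 against 24 °C and from −0.0081 to 0.069 in males at 24 against 18 °C. In males at 28 against 18 °C Atg8a ranged from −0.12 to 0.18 and Atg9 from −0.021 to 0.27. ref(2)P ranged from −0.18 to 0.032 in males at 24 against 18 °C and from −0.11 to 0.019 between the sexes.

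Whether replicate numbers pair the libraries was not tested. Deviations from the group means correlated with a median of 0.09 (−0.45 to 0.65) over 55 pairs of libraries with the same number. The median was −0.03 (−0.64 to 0.625) over 165 pairs with other numbers. With the replicate block the female calls of Atg7 (−0.31) and Atg8a (0.29) at 28 against 18 °C and of Atg9 between the sexes (−0.15) were lost, and those of Atg1 in males at 28 against 18 °C (0.35) and ref(2)P in females at 24 against 18 °C (0.38) were gained.

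With 206 to 529 counts per male library for Atg7 and Atg5, and 3 male libraries at 28 °C, these genes rested on the fewest counts of the 9. The ratios of Atg8b to Atg8a were not run, since Atg8b was not analysed here.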

Other observations

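Genes upstream and downstream of autophagosome formation were also counted. Of 15 lysosomal genes, 12 passed at 28 against 18 °C in females, 11 higher and 1 lower, against 41.4% of all tested features, and 8 passed in males, all higher, against 29.3%. The median log2 change of the list was 0.50 in females and 0.52 in males, where all tested features had −0.09 and 0.01. Gba1b, a glucocerebrosidase of the lysosome, had the largest rise, of 1.95 ± 0.17 in females (edgeR, adjusted p = 1.16e-08) and 1.36 ± 0.17 in males (adjusted p = 3.36e-06). Ppt1, a palmitoyl-protein thioesterase, was the gene that fell in females, by 0.37 ± 0.09 (adjusted p = 0.00189). Between the sexes 9 passed, 8 higher in males, a smaller share than the 86.7% of all tested features, with Gba1b at 1.30 ± 0.09 and the cathepsin gene CtsL1 at −0.22 ± 0.07. In the difference of the changes 4 passed, 1 more positive and 3 more negative in males, against 20.3% of all tested features. Ppt1 was the positive one at 0.57 ± 0.13 (adjusted p = 0.00266), and Cln7 was lowest at −1.02 ± 0.18 (adjusted p = 0.000258).

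Of 15 regulators of autophagy, 3 passed at 28 against 18 °C in females, 2 higher and 1 lower, against 41.4% of all tested features, and 5 in males, all higher, against 29.3%. The female split was 2 higher and 4 lower with DESeq2 and 1 higher and 2 lower with library totals. raptor, a subunit of TOR complex 1, had log2 changes of 0.49 ± 0.12 for females (adjusted p = 0.00183) and 0.57 ± 0.13 for males (adjusted p = 0.00163). Rheb, the GTPase that activates this complex, fell by 0.24 ± 0.06 in females (adjusted p = 0.00233). Between the sexes 11 passed, 2 higher and 9 lower in males, against 86.7% of all tested features. Lkb1, a kinase upstream of AMPK, was highest at 0.68 ± 0.07 (adjusted p = 6.54e-09), and raptor was lowest at −1.59 ± 0.07 (adjusted p = 5.87e-15). In the difference of the changes 2 passed, both more positive in males, against 20.3% of all tested features, with gig, the fly TSC2 gene, at 0.63 ± 0.12 (adjusted p = 0.000624). With DESeq2 and with library totals 3 passed, all more positive in males. With no filter, and without the libraries that stood apart, 2 passed and only 1 was more positive.

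In the main fit the steps to and from 24 °C had fewer calls. At 24 against 18 °C in females, 6 of the 29 other autophagy genes passed, 3 of the lysosomal genes and 0 of the regulators (3 at an unadjusted p under 0.05, 2 with DESeq2), against 25.4% of all tested features. Rab7, a GTPase of late endosomes, rose most of the autophagy genes (0.43 ± 0.07) and Vps39 fell most (−0.30 ± 0.08), and Gba1b rose most of the lysosomal genes (1.205 ± 0.167). In males 0 genes of the 3 lists passed with edgeR or DESeq2, with 3, 2 and 2 at an unadjusted p under 0.05. At 28 against 24 °C in females, 6, 7 and 1 passed, against 28.3% of all tested features. Of the 6 autophagy genes 1 was higher and 5 lower, while with no filter 3 of 6 were higher. Without the libraries that stood apart 11 lysosomal genes passed in this step, as many as at 28 against 18 °C. At 24 against 18 °C in females 8 lysosomal genes then passed. Vps15 rose most of the autophagy genes (0.25 ± 0.07) and Atg10 fell most (−0.77 ± 0.13), LManII rose most (1.19 ± 0.21) and Npc2a fell most (−0.35 ± 0.08) of the lysosomal genes, and Rheb was the regulator that fell (−0.36 ± 0.06). In males 5, 7 and 4 passed, against 10.3%, and 3, 6 and 1 with library totals. The counts were 6, 9 and 4 with DESeq2, and 2, 6 and 0 without the libraries that stood apart. Atg2 rose (0.70 ± 0.12), Atg10 fell (−0.67 ± 0.14), and LManII (1.14 ± 0.22) and raptor (0.55 ± 0.13) rose most of their lists.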
